A study of Mus musculus with 9 samples.

Results

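Kap, Slco1a1, Slc7a13, Odc1, Acy3, Atp11a and Gpm6a were followed in sorted proximal tubule cells of non-diabetic, diabetic and dapagliflozin-treated diabetic mice. The 7 genes were chosen by name, as androgen-responsive or late proximal tubule genes with low levels in diabetic mice, from a table of 24421 rows. Their difference between diabetic and non-diabetic mice is therefore given as a description, and the calls made for them by the fit over all genes are no independent evidence of it. The values fitted the name of the group only in part. In all, 6 of the 7 genes were lower in every db/db mouse than in every db/m mouse. Among all genes tested, 8.13% had that order. Gpm6a overlapped between the groups, and Atp11a was far below the db/m range in only 2 of 3 db/db mice.

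RNA was sequenced from 9 mice, 3 in each of 3 groups. The db/m mice were non-diabetic heterozygotes, the db/db mice were leptin receptor-deficient diabetic mice given vehicle, and the db/db-dapa mice were db/db mice given dapagliflozin, an inhibitor of the glucose transporter SGLT2, at 1.5 mg/kg per day in drinking water for 8 weeks. All 9 mice, on a C57BL/6 background by the label, also carried SLC34a1GCE, a tamoxifen-inducible Cre inserted in the Slc34a1 locus, and R26tdTomato, and all received tamoxifen (3 mg per mouse, 5 injections) from 8 weeks of age. The cells were live tdTomato-positive cells sorted from kidney cortex, so that a cell entered the measurement only where the Slc34a1 locus had driven Cre. The sex of the mice is not given in the labels or methods used here. Library totals ran from 2733314 counts (db/db mouse 1) to 9033062 counts (db/db-dapa mouse 3), and the floor of 3 counts corresponded to between 1.10 and 0.332 CPM (counts scaled to a library total of 1e+06) in these libraries. Levels are given as CPM scaled by TMM, and a gene was called where the edgeR quasi-likelihood test gave an adjusted p under 0.1 with a log2 fold change beyond 1. Nothing in the labels says more of the replicates than that they are separate mice.

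The mouse proximal tubule is one of the most sex-dimorphic epithelia of the body. Testosterone acts on these cells and keeps a set of secreted proteins, transporters and oxidising enzymes high in males, and growth hormone and thyroid hormone modify several of the same genes. The tubule runs from the convoluted S1 and S2 segments, which reabsorb most glucose and amino acids, to the straight S3 segment, which carries its own set of exchangers, organic anion carriers and conjugating enzymes.

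The promoters of the genes differed in kind, and 4 of them are printed here because those genes carried the clearest differences between groups. They are the 250 bases upstream of the start given by RefSeq on GRCm38.p6, written 5′ to 3′ on the strand of the gene, and capitals mark, on either strand, the TATA motif TATAAA, the GC box core GGGCGG and the steroid receptor half-site AGAACA (a match on the other strand reads TTTATA for the first of these and CCGCCC for the GC box). Kap (chr6:133853668-133853917, minus strand), Slco1a1 (chr6:141946963-141947212, minus strand), Odc1 (chr12:17544623-17544872, plus strand) and Acy3 (chr19:3986320-3986569, plus strand) read as follows.
Kap: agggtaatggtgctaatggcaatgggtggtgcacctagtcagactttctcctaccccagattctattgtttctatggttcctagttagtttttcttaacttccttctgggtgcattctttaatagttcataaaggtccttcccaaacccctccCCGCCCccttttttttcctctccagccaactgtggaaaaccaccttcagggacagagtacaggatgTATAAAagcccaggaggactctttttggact
Slco1a1: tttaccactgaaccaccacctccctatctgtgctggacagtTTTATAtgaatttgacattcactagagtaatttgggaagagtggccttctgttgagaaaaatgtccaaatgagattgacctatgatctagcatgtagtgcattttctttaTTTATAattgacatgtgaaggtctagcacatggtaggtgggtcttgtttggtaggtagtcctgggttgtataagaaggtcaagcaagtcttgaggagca
Odc1: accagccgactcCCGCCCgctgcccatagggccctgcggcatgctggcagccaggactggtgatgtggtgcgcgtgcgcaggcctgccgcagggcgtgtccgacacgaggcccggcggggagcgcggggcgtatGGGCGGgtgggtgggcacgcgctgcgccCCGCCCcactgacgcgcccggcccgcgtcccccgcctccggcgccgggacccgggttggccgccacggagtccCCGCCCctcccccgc
Acy3: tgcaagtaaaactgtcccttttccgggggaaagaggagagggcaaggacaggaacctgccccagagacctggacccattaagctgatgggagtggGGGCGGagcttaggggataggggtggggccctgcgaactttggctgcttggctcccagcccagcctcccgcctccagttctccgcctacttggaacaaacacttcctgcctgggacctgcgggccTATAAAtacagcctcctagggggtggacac

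Kap and Acy3 each held TATAAA close to the start, at -31 and -30, counted back from the start to the first letter of the match. Slco1a1 held 2 copies on the other strand, at -209 and -99, and Odc1 held none. The GC box core occurred 4 times in Odc1, once each in Kap and Acy3 and nowhere in the Slco1a1 window. The CG dinucleotide, whose density marks CpG islands, was counted 35 times in Odc1, 6 times in Acy3, 1 time in Kap and 0 times in Slco1a1, beside a median of 6 over all promoters. Odc1 thus had a GC-rich promoter without TATAAA, with 80.0% G and C against a median of 52.4%, whereas Kap (45.6%) and Slco1a1 (40.4%) were poor in CG dinucleotides. The steroid receptor half-site was in none of the 4 windows and in 16.1% of all 32851 promoters of this length. The TATA motif was in 12.4% of them and the GC box core in 32.7%. Of the members' windows not printed, a window of Gpm6a held the half-site, at -238, and that of Atp11a did not. The GENCODE models of Kap and Odc1 begin upstream of the RefSeq start, inside these windows. The matches are a description of the printed letters and say nothing about binding.

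Kap encodes the kidney androgen-regulated protein, a secreted protein of the proximal tubule and the classical androgen-induced transcript of mouse kidney. Its level was 35224, 23982 and 28999 CPM in the 3 db/m mice, 1469, 2026 and 3146 CPM in the db/db mice, and 7229, 3515 and 5905 CPM in the db/db-dapa mice. The 3 groups did not overlap, and the treated mice lay between the others. In the db/m libraries Kap alone took 2.39% to 3.40% of all counts, against 0.158% to 0.326% in db/db and 0.351% to 0.730% in db/db-dapa. Per kilobase of transcript, it ranked 1 of 14944 genes in db/m, 4 in db/db and 2 in the treated mice, so it remained among the most abundant RNAs of these cells in every group. The fitted log2 fold change was -3.73 ± 0.36 (SE, n = 3 mice per group) for db/db against db/m, which is 13.3-fold lower. In the treated mice it was -2.41 ± 0.34 against db/m, which is 5.30-fold lower. Kap spans chr6:133849851-133853762 on the minus strand (GRCm38), in a protein-coding model.

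Slco1a1 encodes OATP1A1, an apical carrier of organic anions that include steroid and bile acid conjugates, and is known to depend on androgen in the kidney. It had the widest range of the 7 genes. Its level was 429, 553 and 369 CPM in db/m, 5.1, 3.0 and 9.0 CPM in db/db, and 93.0, 14.2 and 143.9 CPM in db/db-dapa mice. The db/db values rested on 15, 15 and 71 counts, above the floor of 3. The groups did not overlap, but db/db-dapa mouse 2 lay much nearer to the db/db mice than the other treated mice did. Against db/m, the fitted log2 fold change was -6.24 ± 0.76 in untreated and -2.43 ± 0.61 in treated diabetic mice, or 75.7-fold and 5.38-fold lower. The first became -6.86 without db/db mouse 3, and the second ran from -1.92 without db/db-dapa mouse 2 to -3.06 without db/db-dapa mouse 3. On the scale of CPM per kilobase its rank went from 682 in db/m to 10502 in db/db and 2983 in the treated mice. The gene lies at chr6:141907282-141946962, minus strand, on the same chromosome as Kap.

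Slc7a13 encodes AGT1, the S3 carrier of aspartate, glutamate and cystine that pairs with the heavy chain Slc3a1. Its level was 484, 375 and 310 CPM in db/m, 9.52, 7.40 and 100.2 CPM in db/db, and 84.7, 35.1 and 124.8 CPM in db/db-dapa mice. Every diabetic mouse was below every db/m mouse, but db/db mouse 3 stood more than a factor of 10 above the other two and within the treated range. Against db/m, it differed by a log2 fold change of -3.27 ± 0.83 in db/db mice and of -2.26 ± 0.79 with dapagliflozin, and without db/db mouse 3 the first became -5.55. Slc3a1, its partner, was at 421, 446 and 369 CPM in db/m and 330, 323 and 738 CPM in db/db mice, and did not pass the test (log2 fold change 0.17 ± 0.30, adjusted p = 0.836, edgeR). The heavy chain therefore overlapped between the groups while its light chain did not. Slc7a13 lies at chr4:19818725-19842218 on the plus strand.

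Odc1 encodes ornithine decarboxylase, the rate-limiting enzyme of polyamine synthesis and another long-known androgen target in mouse kidney. The gene was the least variable of the 7 within db/db mice on a relative scale. Its level was 1067, 1299 and 1520 CPM in db/m, 385, 360 and 413 CPM in db/db, and 717, 675 and 550 CPM in db/db-dapa mice. All 3 groups were separate, with the treated mice in the middle. On the log2 scale the fold change against db/m was -1.75 ± 0.19 in db/db, 3.35-fold lower, and -1.0 ± 0.19 in db/db-dapa, a value that lay just past the fold threshold. The latter call was lost in 5 of 11 other settings (with total counts only, -0.95) and with 5 of the 9 mice left out in turn (without db/m mouse 3, -0.88). Odc1 lies at chr12:17544794-17551505 on the plus strand.

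Acy3 encodes aminoacylase III, which removes the acetyl group from mercapturic acids and other acetylated amino acids in the kidney. Its level was 3015, 2464 and 3412 CPM in db/m, 558, 918 and 899 CPM in db/db, and 1340, 1056 and 1220 CPM in db/db-dapa mice. The groups again did not overlap. Relative to db/m, Acy3 had a log2 fold change of -1.90 ± 0.23 in db/db mice and of -1.30 ± 0.23 with dapagliflozin, or 3.74-fold and 2.46-fold lower. Per kilobase it ranked 12 in db/m, 95 in db/db and 50 in the treated mice. It lies at chr19:3986570-3990007 on the plus strand.

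Atp11a and Gpm6a behaved differently from the other 5 genes. Atp11a encodes a phospholipid flippase of the plasma membrane, which moves phosphatidylserine to the inner leaflet. Its level was 696, 867 and 695 CPM in db/m, 99.9, 150.5 and 636 CPM in db/db, and 443, 519 and 662 CPM in db/db-dapa mice. The diabetic values stayed below each db/m value, but db/db mouse 3 and db/db-dapa mouse 3 nearly reached them. Its log2 fold change was -1.34 ± 0.53 in db/db mice and -0.48 ± 0.52 in treated mice, both against db/m, and the first became -2.59 without db/db mouse 3. An antisense gene inside it, Gm15350, had a mean of 8.43 CPM, and reads of the 2 strands cannot be told apart here, since the sources do not say whether strand was counted. Atp11a spans chr8:12757014-12868728 on the plus strand.

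Gpm6a encodes a membrane proteolipid best known from neurons. Its level was 51.5, 63.5 and 39.7 CPM in db/m, 29.6, 35.4 and 67.5 CPM in db/db, and 53.8, 50.9 and 60.1 CPM in db/db-dapa mice. The ranges overlapped in each comparison, and the highest and the lowest value both came from db/db mice. Its log2 fold change was -0.21 ± 0.29 in db/db mice and 0.09 ± 0.28 in treated mice, both against db/m, so in these libraries Gpm6a was not lower in diabetes beyond the spread between mice. It lies at chr8:54954843-55060871 on the plus strand.

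**Figure D1:**
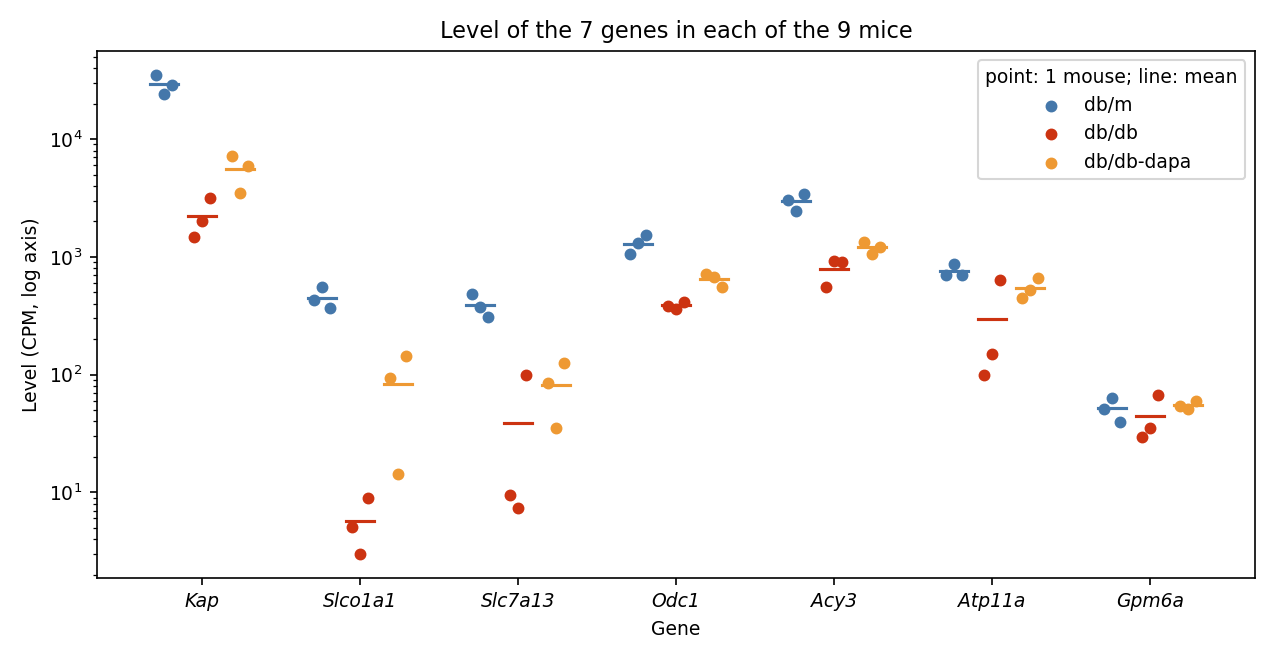
Level of each of the 7 genes (CPM, log axis) in each mouse, with a point per mouse and a line at the mean of each group of 3. Kap, Slco1a1, Odc1 and Acy3 form 3 separate groups, while Slc7a13 and Atp11a have a db/db mouse among the treated mice and Gpm6a overlaps throughout.

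Counted together, 4 of the 7 genes (Kap, Slco1a1, Odc1 and Acy3) were called lower in db/db than in db/m mice, where 0.699% of all 15583 genes tested were called lower. In db/db-dapa against db/m, 3 of 7 (Kap, Odc1 and Acy3) were called lower, where the share over all genes was 0.475%. Every mouse was below every db/m mouse for 6 of 7 genes in db/db, where 8.13% of all genes had that order, and for 6 of 7 in db/db-dapa, where 13.7% had it. Since the choice of the genes used these contrasts, nothing is read from those counts. The median log2 fold change of the 7 genes was -1.90 in db/db mice and -1.30 in treated mice, both against db/m, beside 0.020 and -0.022 over all genes. The count for the treated mice moved with single libraries. It was 0 of 7 without db/db-dapa mouse 2, where 14 of all genes were called instead of 164. It was 4 of 7 without db/db mouse 3, where 662 of all genes were called. That mouse is not in the comparison and enters it only through the fit shared by all 9 mice. The call of Acy3 was lost with 4 of the 9 mice left out in turn.

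The question of the third group was whether dapagliflozin moved these levels in diabetic mice. No member passed the test for db/db-dapa against db/db (0 of 7 by edgeR, adjusted p = 0.854 for 6 genes and 0.864 for Gpm6a), and no gene of the 15583 did either (0%), although 808 genes and 4 of the 7 had an unadjusted p under 0.05. DESeq2 called 13 genes, of which Kap (adjusted p = 0.0531) and Slco1a1 (adjusted p = 0.00458) are 2, and limma called 0. The log2 fold change was positive for all 7 genes, at 1.33 ± 0.33 for Kap, 3.82 ± 0.70 for Slco1a1, 1.02 ± 0.78 for Slc7a13, 0.74 ± 0.19 for Odc1, 0.61 ± 0.23 for Acy3, 0.87 ± 0.53 for Atp11a and 0.30 ± 0.28 for Gpm6a (SE, n = 3 mice per group). These are differences on the log2 scale, and their median was 0.87 beside -0.009 over all genes. For Kap, Slco1a1, Odc1 and Acy3 every treated mouse was above every db/db mouse, an order that 4.9% of all genes had. The 2 comparisons share the db/db mice, and the genes were known to be low in those mice, so a higher value elsewhere is not independent of the choice.

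The calls of this comparison moved when single mice were left out. Without db/db mouse 3, edgeR called 272 genes for db/db-dapa against db/db, among them 4 of the 7: Kap (log2 fold change 1.68, adjusted p = 0.0681), Slco1a1 (4.44, adjusted p = 0.0687), Slc7a13 (3.30, adjusted p = 0.0612) and Atp11a (2.12, adjusted p = 0.0407). The levels of Slc7a13 and Atp11a in that mouse were near those of treated mice. Leaving it out also raised the genes called for db/db-dapa against db/m, where it takes no part, from 164 to 662. The cause was not tested. Without db/db-dapa mouse 2, Slco1a1 was called (4.33, adjusted p = 0.00764), and without db/db-dapa mouse 3 its log2 fold change was 3.19. No treated mouse reached the db/m range in Kap, Slco1a1, Slc7a13, Odc1, Acy3 or Atp11a. Set as a share of the log2 difference between db/db and db/m, the treated group lay 35.5% of the way up for Kap, 61.1% for Slco1a1, 31.0% for Slc7a13, 42.7% for Odc1, 31.8% for Acy3 and 64.6% for Atp11a. The share of Slc7a13 ran from 17.8% without db/db-dapa mouse 3 to 59.4% without db/db mouse 3. These shares carry the spread of both differences and were not compared with each other.

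**Figure D2:**
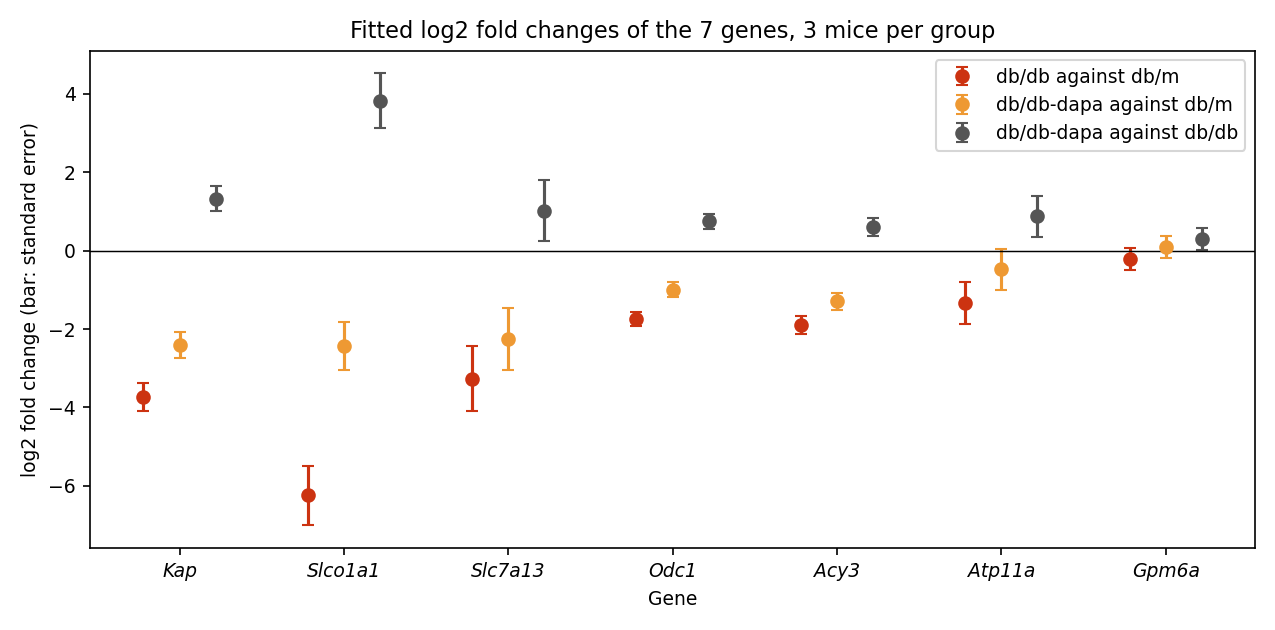
Fitted log2 fold change of the 7 genes in the 3 comparisons, with bars of 1 standard error and 3 mice per group. Slco1a1 has the largest distance from db/m in db/db (-6.24) and Gpm6a the smallest (-0.21), and the treated mice lie nearer to db/m than the db/db mice do.

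Among 12 other genes known to be androgen-induced or higher in male kidney, 6 fell in db/db mice and none rose (edgeR). They were Hsd11b1, which regenerates active glucocorticoid, Acsm3, a medium-chain acyl-CoA synthetase, Cyp4b1, Cyp2j13 and Cyp2e1, which are cytochrome P450 monooxygenases, and Nudt19, a CoA-cleaving enzyme of peroxisomes. All 12 had a negative log2 fold change, with a median of -1.31, and 8 were lower in every db/db mouse than in every db/m mouse. The list was chosen with these results known, and the genome-wide shares for these 2 counts are the 0.699% and 8.13% above. The count was 2 without db/db mouse 2 and 8 without db/db mouse 3.

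Hsd11b1 had the largest fold of these genes. Its level was 34.5, 51.3 and 39.7 CPM in db/m, 4.08, 4.80 and 3.16 CPM in db/db and 3.26, 4.73 and 5.66 CPM in db/db-dapa mice, so the treated and untreated diabetic mice overlapped at a low level. The log2 fold change was -3.40 ± 0.28 in db/db mice and -3.19 ± 0.27 in treated mice, both against db/m (adjusted p = 0.000681 in both, edgeR). Cyp4b1 was the other gene of the list called in both diabetic groups. It was at 3521, 3764 and 4314 CPM in db/m, 867, 1018 and 1595 CPM in db/db and 1999, 1409 and 1710 CPM in db/db-dapa mice (log2 fold change -1.74 ± 0.25, adjusted p = 0.0106, and -1.18 ± 0.24, adjusted p = 0.0671, edgeR).

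In the other 4 called genes the treated mice were not called against db/m. Acsm3 was at 213, 280 and 272 CPM in db/m and 12.9, 34.8 and 69.0 CPM in db/db mice (log2 fold change -2.68 ± 0.49, adjusted p = 0.03, edgeR), and its fold change became -3.38 without db/db mouse 3. Nudt19 was at 990.2, 955 and 1147 CPM in db/m and 152, 311 and 464 CPM in db/db mice (-1.73 ± 0.32, adjusted p = 0.0329, edgeR). In both genes db/db mouse 1 was the lowest and db/db mouse 3 the highest of its group. Cyp2j13 (-1.35 ± 0.30, adjusted p = 0.068, edgeR) and Cyp2e1 (-1.26 ± 0.30, adjusted p = 0.0891, edgeR) lay closer to the threshold. Against db/m, the treated mice had 2 of the 12 called lower, where the share over all genes was 0.475%. The median log2 fold change of the 12 there was -0.68, with 10 negative and 2 positive. Between db/db-dapa and db/db 0 of 12 were called, as were 0% of all genes, so nothing is read from that count.

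Not every gene of the list had a fold beyond 1 on the log2 scale. Gusb, beta-glucuronidase, one of the oldest androgen-induced enzymes of mouse kidney, was at 25.7 to 32.6 CPM in db/m, 23.0 to 25.8 CPM in db/db and 22.4 to 24.4 CPM in db/db-dapa mice (log2 fold change -0.30 ± 0.17 for db/db against db/m, adjusted p = 0.466, edgeR). Slco1a6, a relative of Slco1a1 in the same family, was at 193 to 265 CPM in db/m and 158 to 323 CPM in db/db mice (-0.03 ± 0.26, adjusted p = 0.973, edgeR). Both overlapped between these groups. Cyp4a12b also overlapped, at 73.3 to 117 CPM in db/m and 39.4 to 122 CPM in db/db mice (-0.16 ± 0.33, adjusted p = 0.864, edgeR). In db/db-dapa mice Cyp4a12b was at 132 to 158 CPM, above each db/m mouse, but was not called (0.68 ± 0.33, adjusted p = 0.292, edgeR).

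Genes listed here as female-biased did not form 1 direction. In db/db against db/m, 3 of the 4 tested genes were positive and only Cyp2a4 was negative. Of the positive genes, Slc7a12 was near the floor and close to 0 (log2 fold change 0.01 ± 0.65, adjusted p = 0.997, edgeR). It was at 0.157 to 0.888 CPM in db/m and 0 to 0.884 CPM in db/db mice. The sex bias of the listed genes in kidney was not measured in these mice, so nothing about sex is read from them. Cyp2a4, a steroid-hydroxylating P450, fell in db/db mice, from 730.1, 433 and 651 CPM to 21.1, 58.0 and 170 CPM (log2 fold change -2.85 ± 0.59, adjusted p = 0.0511, edgeR), with -3.91 without db/db mouse 3, and the call was lost without db/db mouse 2 (-2.64, adjusted p = 0.153). Cyp4a14, a fatty acid omega-hydroxylase, rose in db/db-dapa against db/m mice, from 63.2, 67 and 131 CPM to 711, 816 and 1198 CPM (3.39 ± 0.77, adjusted p = 0.0924, edgeR). Untreated db/db mice were at 70.0, 633 and 1411 CPM, short of a call against db/m (3.02 ± 0.76, adjusted p = 0.108, edgeR). The treated and untreated diabetic mice overlapped (0.36 ± 0.70, adjusted p = 0.929, edgeR). Prlr, the prolactin receptor, was above each db/m mouse in all diabetic mice, with a wide spread (2.27 to 3.78 CPM in db/m, 4.42 to 55.2 CPM in db/db), and did not pass the test (2.96 ± 0.90, adjusted p = 0.183, edgeR). Of the 5 listed genes 4 were tested, 1 was called lower in db/db and 1 higher in db/db-dapa against db/m.

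**Figure D3:**
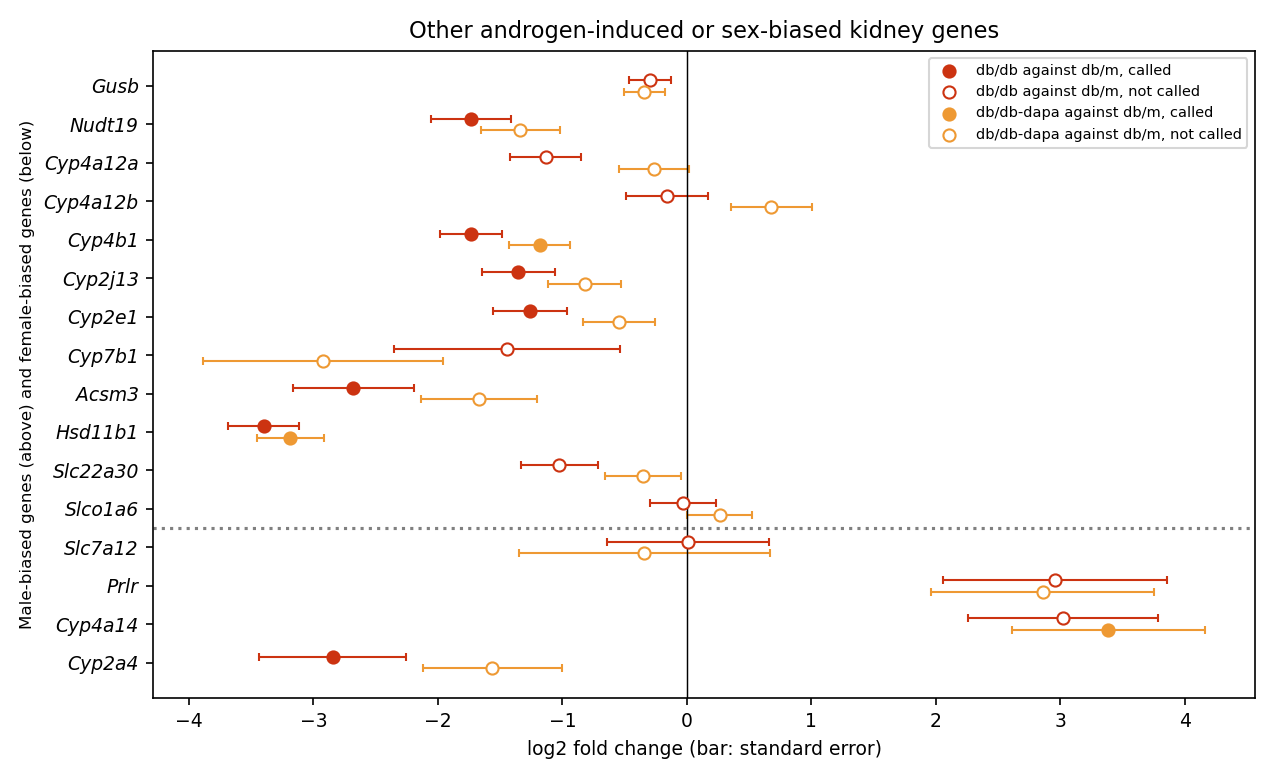
Log2 fold change against db/m of 12 other androgen-induced or male-biased kidney genes (above the dotted line) and 4 genes listed as female-biased (below), in db/db and db/db-dapa mice, with bars of 1 standard error and filled points where the gene was called. The male-biased genes lie at or left of 0 in db/db mice. In db/db-dapa mice Cyp4a12b (0.68) and Slco1a6 (0.26) lie to the right of 0. The genes listed as female-biased lie on both sides, with only Cyp2a4 on the left in db/db mice. Slc7a12, near the floor of detection, lies at 0.01 there.

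The receptors of growth hormone, glucocorticoid, thyroid hormone and estrogen did not pass the test. Ghr, the growth hormone receptor, was at 519, 464 and 505 CPM in db/m and 213, 259 and 441 CPM in db/db mice, without overlap but short of the test (-0.70 ± 0.26, adjusted p = 0.26, edgeR). The glucocorticoid receptor Nr3c1 (0.40 ± 0.33, adjusted p = 0.629), the thyroid hormone receptors Thra (-0.003 ± 0.28, adjusted p = 0.998) and Thrb (0.28 ± 0.34, adjusted p = 0.755) and the estrogen receptor Esr1 (-0.42 ± 0.68, adjusted p = 0.819) overlapped between db/db and db/m mice (edgeR). Within a list of 25 receptors and steroid enzymes, Hsd17b11, a 17-beta-hydroxysteroid dehydrogenase found on lipid droplets, was the only gene called, and it fell in both diabetic groups. Hsd17b11 was at 513, 590.1 and 494 CPM in db/m, 118, 106 and 140.1 CPM in db/db and 163, 131 and 127 CPM in db/db-dapa mice (-2.13 ± 0.19, adjusted p = 0.000703, and -1.92 ± 0.18, adjusted p = 0.000921, edgeR).

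The enzymes and partners around the members were listed by pathway and family. In the 12 other genes of polyamine metabolism, 0 were called in any comparison by edgeR, DESeq2 or limma. In db/db against db/m, 2 had an unadjusted p under 0.05 (edgeR), as had 2142 of all 15583 genes tested. The median log2 fold change of the 12 there was -0.09. Amd1, which makes the aminopropyl donor, was at 41.3 to 55.1 CPM in db/m and 38.8 to 54.3 CPM in db/db mice, and the spermine synthase Sms was at 69.4 to 72.6 and 72.1 to 83.6 CPM. Srm, spermidine synthase, was lower in each db/db mouse than in each db/m mouse but missed the test (-0.50 ± 0.20, adjusted p = 0.302, edgeR). Azin1, which frees ornithine decarboxylase from antizyme, was at 96.1 to 151 CPM in db/m and 97.9 to 159 CPM in db/db mice, and the polyamine acetylase Sat1 was at 334 to 389 and 250 to 452 CPM. These ranges overlapped.

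The relatives of the other members were counted in the same way. By edgeR, 0 of 7 tested genes of the OATP family, 0 of 10 amino acid exchangers and heavy chains, 0 of 12 phospholipid flippases, 0 of 4 aminoacylases and 0 of 3 proteolipid genes were called in any comparison. In db/db against db/m, 1, 3, 0, 1 and 0 of these had an unadjusted p under 0.05 (edgeR), as had 2142 of all 15583 genes tested. There DESeq2 called 0 in each family, and limma called 1 OATP gene. Over all genes, edgeR called 1.24% in db/db mice and 1.05% in treated mice against db/m, so lists this short would hold few calls at that share and nothing is read from the zeros. Tmem30a, the subunit that Atp11a needs to leave the endoplasmic reticulum, was at 149 to 198 CPM in db/m and 122 to 163 CPM in db/db mice (log2 fold change -0.39 ± 0.19, adjusted p = 0.405, edgeR).

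The position of the members along the tubule was set against segment markers. Of 11 S3 markers, Slc22a7, the organic anion transporter OAT2, was the only gene called, and it fell in both diabetic groups. It was at 73.5, 48.3 and 42.9 CPM in db/m, but the db/db libraries held only 1, 1 and 2 counts, which gives at least a 53.8-fold lower level against a floor of 3 counts in the smallest library. The median log2 fold change of the S3 markers was -0.72 in db/db mice and -0.59 in treated mice, both against db/m, and 6 and 7 of 11 were negative. The S3 marker Slc27a2, a very long-chain acyl-CoA synthetase, was at 4934, 3942 and 3373 CPM in db/m and 1436, 2479 and 3495 CPM in db/db mice, and Ggt1, gamma-glutamyltransferase, was at 1445, 1369.8 and 2157 CPM in db/m and 535, 869.7 and 1035 CPM in db/db mice. In both, db/db mouse 1 was the lowest and db/db mouse 3 the highest of the group. Neither passed the test (adjusted p = 0.305 and 0.112, edgeR). The 5 S3 markers with a positive value, none of them called, were the glucose carrier Slc5a1 (log2 fold change 0.38), Serpina1f (0.24), Slc3a1 (0.17), Slc22a13 (0.048) and Slc6a18 (0.037). In all 5, db/db mouse 3 was the highest of its group. In Slc3a1, Slc22a13 and Slc6a18, db/db mice 1 and 2 were below each db/m mouse and mouse 3 was above each. Slc6a18 was at 441, 416 and 519 CPM in db/m and 73.8, 396 and 938 CPM in db/db mice. Serpina1f was near the floor, at no more than 3.54 CPM in any mouse.

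S1 and S2 markers went the other way without a call. Of 13 such genes 12 had a positive log2 fold change in db/db mice and 13 in treated mice against db/m, with medians of 0.54 and 0.63. By edgeR 0 were called, with 8 and 7 at an unadjusted p under 0.05, and by DESeq2 0 and 1 were called. Over all 15583 genes tested, 2142 and 2829 had an unadjusted p under 0.05 in these comparisons (edgeR). The S1 marker Slc34a1, the phosphate transporter whose locus drove the Cre, was at 3530, 3776 and 4151 CPM in db/m and 6195, 4404 and 4732 CPM in db/db mice (0.42 ± 0.19, adjusted p = 0.346, edgeR). In such bulk samples fewer S3 cells and less RNA of a gene per cell cannot be told apart.

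The segment markers also moved between the db/db mice. The median log2 ratio of the S3 markers to their db/m mean was -1.60 in db/db mouse 1, -0.70 in mouse 2 and -0.21 in mouse 3. That order, lowest in mouse 1 and highest in mouse 3, was also the order of Kap, Atp11a and Gpm6a among the db/db mice. The other 4 members did not have it: Slco1a1, Slc7a13 and Odc1 were lowest in mouse 2, and Acy3 was highest in mouse 2. For the 12 androgen-induced or male-biased genes the same measure was -1.40, -1.54 and -0.83 in the db/db mice and -0.57, -0.93 and -0.56 in the db/db-dapa mice. The S3 markers in db/db-dapa mice were at -0.45, -0.52 and -0.031, so that their values overlapped the db/m range of -0.18 to 0.29 in 1 mouse, whereas the male-biased list stayed below its db/m range of -0.12 to 0.095 in every diabetic mouse. The part of segment composition in the members' levels was not tested.

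**Figure D4:**
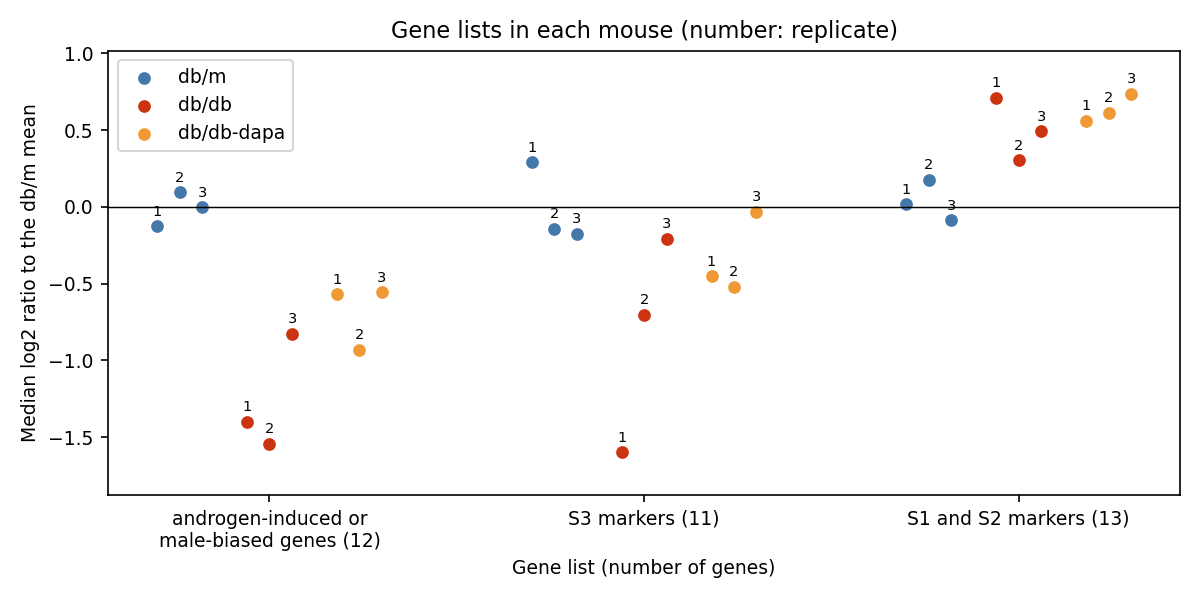
Median log2 ratio to the db/m mean of 12 androgen-induced or male-biased genes, 11 S3 markers and 13 S1 and S2 markers in each mouse, with the replicate number at each point. The S3 markers spread from -1.60 to -0.21 among the db/db mice, while the male-biased genes lie at -0.83 or lower in all 3 of them. Cyp7b1 is in both of these lists.

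Sex and other cells were checked in each library. The Y-linked gene Ddx3y was detected in all 9 mice, at 39.5 to 83.5 CPM, and Xist, the RNA of the inactive X chromosome, was at most 0.680 CPM (0 to 4 counts). The Y-linked genes Uty, Kdm5d and Eif2s3y were also detected in all 9 mice. Each of the 9 libraries thus had the RNA pattern of a male mouse. Markers of thick limb and distal tubule (5 genes) summed to 999 to 2294 CPM in db/m, 609 to 1468 CPM in db/db and 666 to 756 CPM in db/db-dapa mice. Endothelial markers (6 genes) summed to 50.4 to 116 CPM in db/m, 161, 183 and 58.5 CPM in db/db mice 1 to 3, and 174, 52.0 and 42.0 CPM in db/db-dapa mice 1 to 3. Macrophage and leukocyte markers (8 genes) summed to 221 to 506, 134 to 386 and 104 to 333 CPM in the 3 groups, with db/db mouse 3 again the lowest of its group at 134 CPM. The db/db mouse with the highest Slc7a13 and Atp11a thus had the lowest endothelial and leukocyte sums of its group. Collecting duct markers (6 genes) summed to 235 to 796, 248 to 502 and 155 to 270.1 CPM in the 3 groups, and all 6 had a negative log2 fold change in db/db-dapa against db/m, with a median of -1.30. Podocyte markers (4 genes) summed to 249 CPM in db/db-dapa mouse 1 and to 17.6 to 79.2 CPM in the other mice. Erythroid markers (4 genes) summed to 1450 CPM in db/db mouse 2, against 119 and 96.1 CPM in the other db/db mice, 145 to 417 CPM in db/m and 29.0 to 292 CPM in db/db-dapa mice. Fibroblast and pericyte markers (5 genes) summed to 1.70 to 12.1 CPM over the 9 mice. Tubular injury markers (7 genes) summed to 813 to 1056 CPM in db/m, 2031, 1586 and 859 CPM in db/db mice 1 to 3, and 1068 to 1498 CPM in db/db-dapa mice. Most of this sum was Spp1, at 1836, 1416 and 772 CPM in db/db mice 1 to 3. Of the 7 injury markers, 6 had a negative log2 fold change in db/db against db/m, with a median of -0.71 over the 7. Among those 6, Havcr1, Lcn2 and Krt20 were near the floor in db/db mice, at no more than 2.04, 1.02 and 1.02 CPM, so their signs rest on few counts. No gene of these lists was at 0 in all 9 mice or called in any comparison by edgeR, whereas DESeq2 called 3 collecting duct genes in db/db-dapa against db/m, 1 thick limb or distal gene in each diabetic group against db/m and 2 injury genes in db/db against db/m. The part of other cells and of injury in the members' levels was not tested.

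The genes whose levels followed the 7 most closely over the 9 mice were found by Pearson's r of log2(CPM + 1) with the mean standardised profile of the 7, among 10509 genes with a mean of at least 5 CPM. They were Cd36 (r = 0.992), a fatty acid receptor and carrier, Galns (0.985), a lysosomal sulfatase, Ldhd (0.985), the D-lactate dehydrogenase of mitochondria, Azgp1 (0.980), a secreted lipid-mobilising glycoprotein, Cyb561 (0.975), an electron-transferring cytochrome, and Frzb (0.972), a secreted Wnt antagonist. Cd36 was at 319, 420.5 and 261 CPM in db/m, 23.8, 26.6 and 88.2 CPM in db/db, and 119, 61.8 and 135 CPM in db/db-dapa mice. It thus shared the gap between db/m and diabetic mice, the high db/db mouse 3 and the low db/db-dapa mouse 2. Azgp1 had the same order, at 121 to 141, 10.9 to 39.0 and 34 to 53.6 CPM in the 3 groups. The lowest correlations were those of Parp2 (-0.962), a DNA repair enzyme, Col27a1 (-0.954), a fibrillar collagen, and Dvl1 (-0.944), a Wnt signal transducer. Parp2 was at 7.72 to 8.55 CPM in db/m, 12.6 to 17.3 CPM in db/db and 11 to 11.8 CPM in db/db-dapa mice. These correlations run over 9 libraries in 3 groups, which share the difference between db/m and diabetic mice, and they are given as a description.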

How the data were processed

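The deposited table, made by the authors from TruSeq stranded mRNA libraries (101-bp single-end reads), is named FPKM, but its numbers were handled as estimated counts, since 85.9% of the entries above 0 had no fraction and 69.1% of the others end in 0.5. The study names TopHat 2.0.13, Bowtie2 2.2.3, SAMtools 0.1.19 and Cufflinks 2.2.1 with mm10; how the counts were made, and whether strand was used, is not given in the sources used here. Values were rounded to whole counts. Of 24421 rows, the 15583 genes at 0.3 CPM or more in at least 2 mice were tested.

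All 9 mice entered 1 fit without a replicate block (R 4.3.3, edgeR 4.0.16 quasi-likelihood test, TMM scaling, Benjamini-Hochberg adjustment over all genes tested). Calls needed both an adjusted p below 0.1 and a log2 fold change beyond 1 in either direction. Library totals were 2733314 to 9033062 counts, and intervals and floors cover counting error only. The script was tested on simulated data. Alternatives were DESeq2 1.42.0, limma 3.58.1 on log2(CPM + 1), other scalings and filters, a newer form of the edgeR test, a fit of only the 2 groups compared, the replicate block, each mouse left out in turn and, added after seeing the data, library sizes without Kap.

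The members and gene lists were chosen with earlier results of these data known. Named genes were the members; the called genes of each list and otherwise its 2 most abundant, of which those not needed here are given as counts; stated receptors, partners and sex markers; and the 6 most and 3 least similar genes. Some named genes are not reported here. Promoters came from RefSeq (GRCm38.p6), where 6 of 7 members matched, all but Slc7a13; positions are from GENCODE M21 (GRCm38).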

Additional observations from a re-analysis of the deposited data

How the results depend on the processing

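The number of genes called in db/db-dapa against db/db, db/db against db/m and db/db-dapa against db/m was 0, 194 and 164, and became 13, 363 and 507 with DESeq2. With only the 2 groups compared in the fit it was 114 in db/db against db/m and 626 in db/db-dapa against db/m, and without a filter 275 in the latter. Members called in db/db-dapa against db/db rose from 0 to 2 with DESeq2. Male-biased genes called lower in db/db-dapa against db/m were 2, and became 5 with DESeq2, 1 with limma, 4 without a filter, 4 with only the 2 groups compared and 4 with the replicate block; the cause was not tested.

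Leaving out a mouse gave 0 to 272, 84 to 230 and 14 to 662 genes called in the same order of comparisons, and 0 to 4, 4 to 6 and 0 to 4 members. The lowest count of 14 came without db/db-dapa mouse 2, the lowest of 84 without db/m mouse 1, and the 3 highest without db/db mouse 3. That mouse enters db/db-dapa against db/m only through the shared fit. Male-biased genes called lower were 2 to 8 in db/db and 1 to 5 in db/db-dapa against db/m, with the highest counts without db/db mouse 3. Gpm6a changed sign in db/db against db/m without db/db mouse 1 (0.00024, with a lowest value of -0.67 without db/db mouse 3) and in db/db-dapa against db/m without db/m mouse 3 (-0.070, with a highest value of 0.26 without db/m mouse 2). Kap, Slco1a1, Odc1 and Acy3 kept a negative log2 fold change in db/db against db/m in all of these settings, with ranges over the mice left out of -4.08 to -3.51, -6.86 to -5.93, -1.87 to -1.62 and -2.02 to -1.71. Of all values recomputed, 360 kept their direction and side of the threshold under the other settings, 13 passed it newly, 12 lost it and 0 reversed; with a mouse left out these were 261, 9, 43 and 2.

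The replicate numbers were not taken to pair the mice. Correlations of same-numbered mice between groups ran from -0.323 to 0.563. Among db/db-dapa mice, the best match of db/db mice 1 and 3 had their own number (0.402 and 0.563), but that of db/db mouse 2 did not. So few mice cannot decide whether the numbers pair them. The replicate block moved no other count by more than 1.5 times. In db/db mouse 1, the smallest library, Slco1a1 rested on 15 counts and Slc22a7 on 1.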
